A study of Arabidopsis thaliana with 6 samples.

Results

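The genes examined were *PIN7* (AT1G23080), *LAX1* (AT5G01240), *ETTIN* (AT2G33860) and *GH3.9* (AT2G47750), 4 of the 629 genes that the authors listed as candidate targets of ATH1. They were chosen by name as genes of auxin transport, response and conjugation, and every peak that overlapped their listed windows was collected from the 6 deposited peak lists, with the listed neighbors that share a site. ATH1 is a BELL-type homeodomain protein of the shoot apex, and the ChIP-seq experiment asked which genomic sites it occupies. Chromatin was precipitated with beads carrying an antibody against GFP from 3 biological replicates of *ath1-3* plants that carried *pATH1:ATH1-GFP* and from 3 replicates of wild-type plants. The wild type has no GFP and therefore shows what the beads bring down on their own.

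The ATH1-GFP plants were *ath1-3* mutants complemented with a fusion of ATH1 to GFP under the *ATH1* promoter, so the tagged protein was made where that promoter is active and all 3 libraries came from a single transgenic line. The labels describe the wild type as Landsberg *erecta* and give 2 weeks of growth with 16 h of light per day and 1 to 2 g of seedlings per replicate. The description of the series and the paper give Columbia as the wild type, and the paper describes short days, a longer growth period and more tissue. The peak lists do not settle which holds. In both groups leaves and roots were removed from the seedlings before fixation, and each replicate pooled many plants.

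Auxin moves through plant tissues from cell to cell. Influx carriers of the AUX1/LAX family, such as LAX1, bring the hormone into the cell, and efflux carriers of the PIN family, such as PIN7, release it on the side of the cell where they are placed, so that their joint distribution sets the direction of flow. ETTIN (also known as ARF3) is an auxin response factor, a DNA-binding protein that regulates transcription in response to auxin and is known for its roles in organ patterning. GH3 proteins join amino acids to auxin or related acids, and GH3.9 is annotated as a putative indole-3-acetic acid-amido synthetase.

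Every member had a site in all 3 ATH1-GFP libraries that no wild-type peak below a false-discovery rate (FDR) of 0.001 overlapped. Here a peak is an interval called by the program MACS in 1 library, a shared region is a stretch covered by a peak of each ATH1-GFP library at an FDR below 0.001, and a shared region is called free where no wild-type peak at that threshold touches it. Fold enrichment is the ratio of the extended tags piled up at the summit of a peak to the background that MACS expects there in the same library. Among 721 shared regions, 309 (42.9%) were free, and 436 of the 629 listed genes (69.3%) had one in the window attached to them. The 4 members, all with a free region, come from a table made with a criterion of this kind, so their number is a description of the choice. A window is the interval on the TAIR10 genome that the authors attached to a gene, which their file header describes as the coding sequence with 3000 nt before and 1500 nt after it. Not every window follows this rule, since some given here are shorter than these flanks together, and the paper adds that no other gene may intervene.

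After duplicate filtering, 10194418 to 15584829 tags were left per ATH1-GFP library and 3450182 to 13518524 per wild-type library. Between 990 and 1593 peaks per ATH1-GFP library and between 356 and 665 per wild-type library were below an FDR of 0.001. In the windows of the 4 members, the ATH1-GFP libraries had 5, 4 and 4 peaks in replicates 1, 2 and 3, and each wild-type library had 0. The paper describes a selection of genes by peaks in every ATH1-GFP library and in no wild-type library. By the definitions used here the list does not follow this rule throughout, since 436 of the 629 listed genes (69.3%) had a free region. The members still come from a list made with a rule of this kind. The contrast therefore describes the choice of these windows and is no separate evidence of binding. The lack of a peak does not show a lack of tags, since the lists give no counts outside peaks, and wild-type replicate 1 had the fewest tags.

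**Figure D1:**
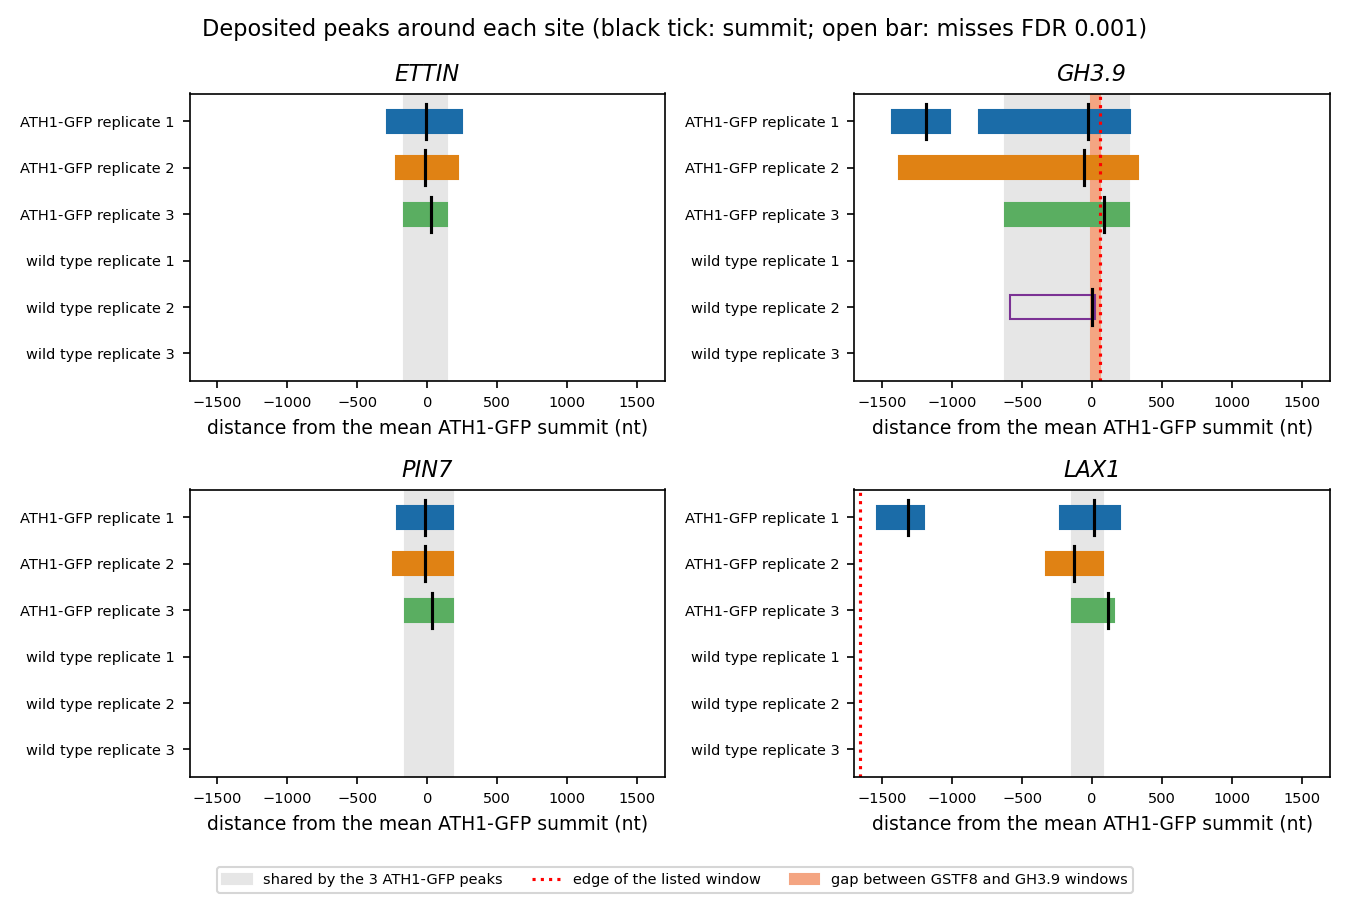
Deposited peaks in the windows of *PIN7*, *LAX1* and *ETTIN* and around the *GH3.9* region (distance in nt from the mean ATH1-GFP summit), with 1 line per library, filled bars for peaks below an FDR of 0.001, an open bar for a peak that misses it, and black ticks for summits. The gray band is the stretch shared by the 3 ATH1-GFP peaks, and at *GH3.9* alone a wild-type peak, which misses the threshold, lies over it.

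Of the transport genes among the members, *PIN7* had the more enriched site. Its window lies on chromosome 1 from 8179077 to 8184952, and the free region, from 8181326 to 8181666 (341 nt), was near the middle of it. The peaks of ATH1-GFP replicates 1, 2 and 3 had fold enrichments of 3.01, 2.66 and 1.85, with 107, 92 and 97 extended tags over the summit. The mean was 2.51 ± 0.596 (SD, n = 3), with the lowest value in replicate 3, and ranked 105 of the 309 free regions.

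The 3 peaks at *PIN7* coincided closely. The summits were at 8181466, 8181468 and 8181518, a span of 52 nt against a median of 84 nt over all free regions, and they lay 2389, 2391 and 2441 nt from the start of the window. The −log10 q values were 19.4, 13.3 and 5.42, all above the value of 3 that corresponds to the threshold. No other listed gene shared this region. The genes next to *PIN7* in the RefSeq order, AT1G23070 and *AST91* (AT1G23090), were not among the listed targets, and no deposited wild-type peak, at any FDR, lay in the window.

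*LAX1* had the weakest site of the 4. Its window lies on chromosome 5 from 95701 to 102293, and its free region, from 97215 to 97437, covers 223 nt and is shorter than most (percentile 9.22 of free regions by length). At this site fold enrichment reached 2.37 in replicate 1, 2.17 in replicate 2 and 1.72 in replicate 3, with 84, 75 and 90 extended tags over the summit. The mean was 2.09 ± 0.335 (SD, n = 3), below the median of 2.29 over all free regions, and ranked 236 of 309.

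The peaks at *LAX1* coincided less well than those at *PIN7*. Their summits, at 97376, 97228 and 97474, spanned 246 nt (percentile 79.9 of free regions), and the summit of replicate 3 lay beyond the end of the shared region. The −log10 q values were 9.56, 6.78 and 3.71. With the stricter FDR of 0.0001, the peak of replicate 3 was lost and with it the region, so that 3 of the 4 members remained, where 270 of all 309 free regions (87.4%) had an FDR below 0.0001 in all 3 libraries.

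The site at *LAX1* cannot be assigned to *LAX1* alone. The windows of *LAX1* and AT5G01230, a listed gene of the *S*-adenosyl-L-methionine-dependent methyltransferase superfamily, share 2194 nt from 95701 to 97894, and the whole free region lies in this stretch. In the RefSeq order, AT5G00745, a long noncoding RNA gene that is not listed, stands between them. Sites in the windows of 2 listed genes were common, with 150 of the 309 free regions against 133 in the window of 1 gene. ATH1-GFP replicate 1 also had a further peak in the stretch common to both windows, from 95822 to 96155, that no other library shared.

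*ETTIN*, the response factor, had the highest mean fold enrichment of the 4. Its window lies on chromosome 2 from 14325192 to 14331978, and its free region covers 309 nt between 14328806 and 14329114. Replicates 1, 2 and 3 gave fold enrichments of 3.43, 3.145 and 2.10, with 122, 109 and 110 extended tags over the summit. The mean was 2.89 ± 0.703 (SD, n = 3) and ranked 63 of 309. It also had the largest spread between libraries of the 4, with a coefficient of variation of 24.3% against a median of 14.9% over free regions. That of *PIN7* was nearly the same, at 23.8%.

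The summits at *ETTIN* were the most tightly placed of the 4 members, at 14328967, 14328957 and 14329002, a span of 45 nt. They lay 3775, 3765 and 3810 nt from the start of the window and 3011, 3021 and 2976 nt from its end. The −log10 q values of 27.0, 21.1 and 9.20 kept the region under both thresholds. *ETTIN* was the sole listed gene at this site, since neither AT2G33855 nor the long noncoding RNA gene AT2G08645, its neighbors in the RefSeq order, was listed. No wild-type library had a deposited peak in the window.

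*GH3.9*, the conjugation gene, differed from the other members in the shape and place of its site. Its window lies on chromosome 2 from 19559925 to 19565482, but the free region spans 19559243 to 19560132, and only 208 of its 890 nt (23.4%) fall in that window. Replicates 1, 2 and 3 gave fold enrichments of 3.04, 2.82 and 2.22, with 123, 114 and 123 extended tags over the summit. The mean was 2.69 ± 0.426 (SD, n = 3) and ranked 86 of 309.

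The peaks at *GH3.9* were long, with 1078, 1712 and 890 nt in replicates 1, 2 and 3, against 301 to 533 nt for the peaks of the other members. Only 9 of the 309 free regions reached 890 nt. The summits were at 19559840, 19559809 and 19559952, a span of 143 nt, and only that of replicate 3 lay in the window of *GH3.9*, 27 nt inside its edge. The −log10 q values were 22.6, 18.5 and 12.0, the last of them the highest of any member in replicate 3.

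Most of the *GH3.9* region belongs to the windows of its listed neighbors. *GSTF8* (AT2G47730), which encodes a glutathione *S*-transferase of the phi class, has a window from 19557139 to 19559855 that holds 613 nt (68.9%) of the region and the summits of replicates 1 and 2, which lay 15 and 46 nt inside its edge. The pre-tRNA gene AT2G47740 has a window of only 665 nt, from 19559463 to 19560127, all of it within the region (74.7%), and it holds all 3 summits. The windows of *GSTF8* and *GH3.9* leave 69 nt between them, which the tRNA window spans. AT2G47740 is 1 of 8 tRNA genes in the table of targets.

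A wild-type library also had a peak at this place. Wild-type replicate 2, the deepest wild-type library with 13518524 tags, had a peak from 19559283 to 19559888, and all of its 606 nt lay over the shared region. Its summit, at 19559863, fell between the windows of *GSTF8* and *GH3.9*, with 77 extended tags, a fold enrichment of 1.69 and a −log10 q of 2.81, just short of the threshold. Such a wild-type peak, deposited but missing the threshold, lay over 3 of the 309 free regions (0.971%), and *GH3.9* was the only member among them. The wild-type peak ended 37 nt before the window of *GH3.9*, so the rule that counts peaks in windows does not see it. Whether the *GH3.9* site owes part of its tags to this background was not tested.

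With all deposited wild-type peaks excluded, whatever their FDR, the *GH3.9* site ceased to be free, and when the center of a region had to lie in the window, it was no longer assigned to *GH3.9*. In each case the other 3 members remained. ATH1-GFP replicate 1 had a further peak from 19558437 to 19558849, outside the window of *GH3.9*, with a fold enrichment of 2.02. The long peak of replicate 2 covers both positions.

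The 4 members shared the order of the libraries. Each had its highest fold enrichment in ATH1-GFP replicate 1 and its lowest in replicate 3, but 282 of the 309 free regions (91.3%) also had their lowest value in replicate 3, and 189 had this complete order. The low values of replicate 3 at the auxin genes were thus shared by most free regions. Among the ATH1-GFP libraries, replicate 3 was the deepest and gave the lowest number of peaks. Averaged over the libraries, the percentile among free regions was 75.5 for *ETTIN* (range 63.1 to 82.5), 71.5 for *GH3.9* (71.0 to 71.7), 57.0 for *PIN7* (33.3 to 70.7) and 24.1 for *LAX1* (7.12 to 37.1). *GH3.9* thus held nearly the same place in each library, whereas *PIN7* was in the upper part of the range in replicates 1 and 2 and in the lower part in replicate 3.

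**Figure D2:**
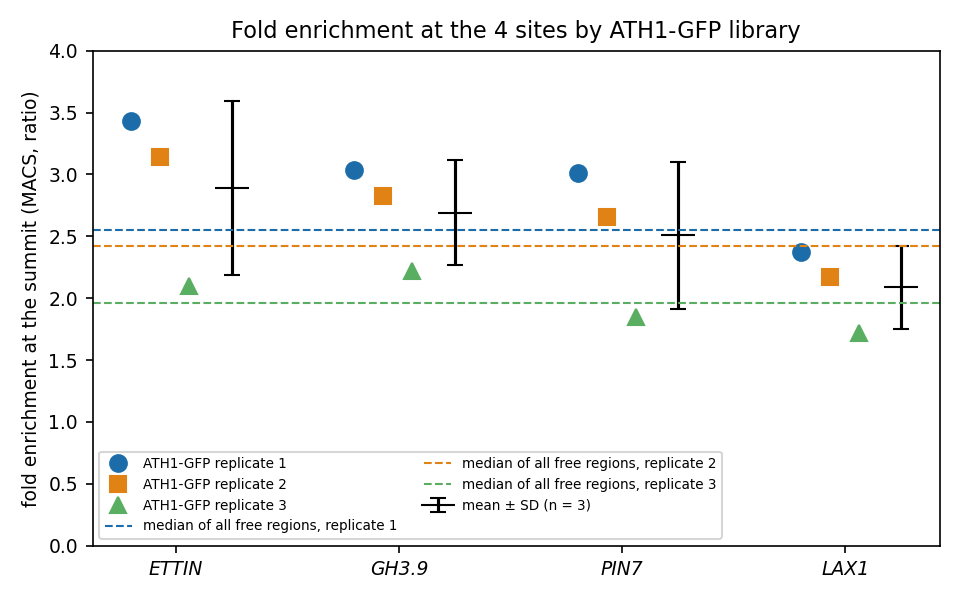
Fold enrichment (ratio, linear axis from 0) at the 4 sites in each ATH1-GFP library, with the mean ± SD (n = 3) and dashed lines at the median of all 309 free regions in that library. *ETTIN* and *GH3.9* were above the median in every library, *PIN7* was below it in replicate 3 only, and *LAX1* was below it in all 3.

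Members were compared within each library, because their values come from the same precipitations. *LAX1* was below each of the others in 3 of 3 libraries. *ETTIN* exceeded it by 1.06, 0.972 and 0.378 in replicates 1, 2 and 3 (mean 0.803 ± 0.371, SD), *GH3.9* by 0.665, 0.652 and 0.497 (mean 0.604 ± 0.0931) and *PIN7* by 0.642, 0.486 and 0.132 (mean 0.420 ± 0.261). The difference between *GH3.9* and *LAX1* varied least between libraries.

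*ETTIN* was also above *PIN7* in 3 of 3 libraries, by 0.419, 0.486 and 0.246 (mean 0.383 ± 0.124). The difference between *GH3.9* and *PIN7* was 0.0228, 0.166 and 0.365 (mean 0.184 ± 0.172), and that between *ETTIN* and *GH3.9* was 0.396, 0.320 and −0.120 (mean 0.199 ± 0.278). *ETTIN* and *GH3.9*, neighbors in the order of means, therefore did not differ beyond their spread, and the order of these members changed in replicate 3. Under exact permutation of the signs of these differences (two-sided), *P* was 0.25 for 5 of the 6 pairs and 0.5 for *ETTIN* against *GH3.9* (0.3 and 0.5 after Benjamini-Hochberg adjustment over the 6 pairs). Because 3 libraries cannot give a value below 0.25, this test could not separate any pair.

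**Figure D3:**
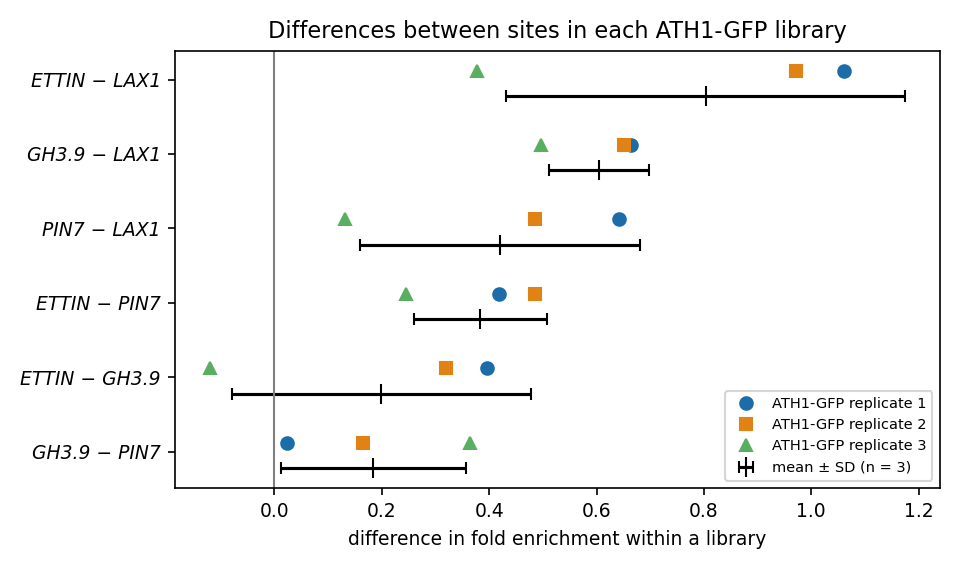
Differences in fold enrichment between members within each ATH1-GFP library (symbols), with the mean ± SD (n = 3) below them and a vertical line at 0. All 3 libraries lie to the right of 0 for 5 pairs, and for *ETTIN* minus *GH3.9* replicate 3 lies to the left of it at −0.120.

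The level at *GH3.9* depended on the background against which it was measured. MACS compares the summit with either the genome-wide density of tags or a higher local density. At *PIN7*, *LAX1* and *ETTIN* the background implied by the fold enrichment equaled the genome-wide value in all 3 libraries, 34.8, 34.0 and 51.9 extended tags. At *GH3.9* it was 39.8, 39.7 and 55.0, which is 1.14, 1.17 and 1.06 times that value. A raised local background was not unusual, with 159, 148 and 112 of the 309 free regions above the genome-wide value in replicates 1, 2 and 3.

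In extended tags at the summit, not scaled for depth, *GH3.9* was the highest of the 4, with a mean of 120 ± 5.20 (SD, n = 3). *ETTIN* followed with 113.7 ± 7.23, *PIN7* with 98.7 ± 7.64 and *LAX1* with 83.0 ± 7.55. In replicate 1, *GH3.9* and *ETTIN* were close, with 123 and 122 tags. With the tags scaled to the depth of each library, the order of means was the same, but the spread was larger relative to the means. The scaled means were 10.28 ± 2.09 for *GH3.9*, 9.81 ± 2.43 for *ETTIN*, 8.50 ± 2.06 for *PIN7* and 7.06 ± 1.16 for *LAX1*. Measured against the genome-wide background, the fold enrichment at *GH3.9* was 3.46, 3.29 and 2.34 (mean 3.03 ± 0.602) and exceeded that of *ETTIN* in 3 of 3 libraries (*P* = 0.25 in the exact test, the smallest value possible). The position of *ETTIN* as the highest of the 4 therefore holds for the local background and not for the genome-wide one. *LAX1* was the lowest with both.

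**Figure D4:**
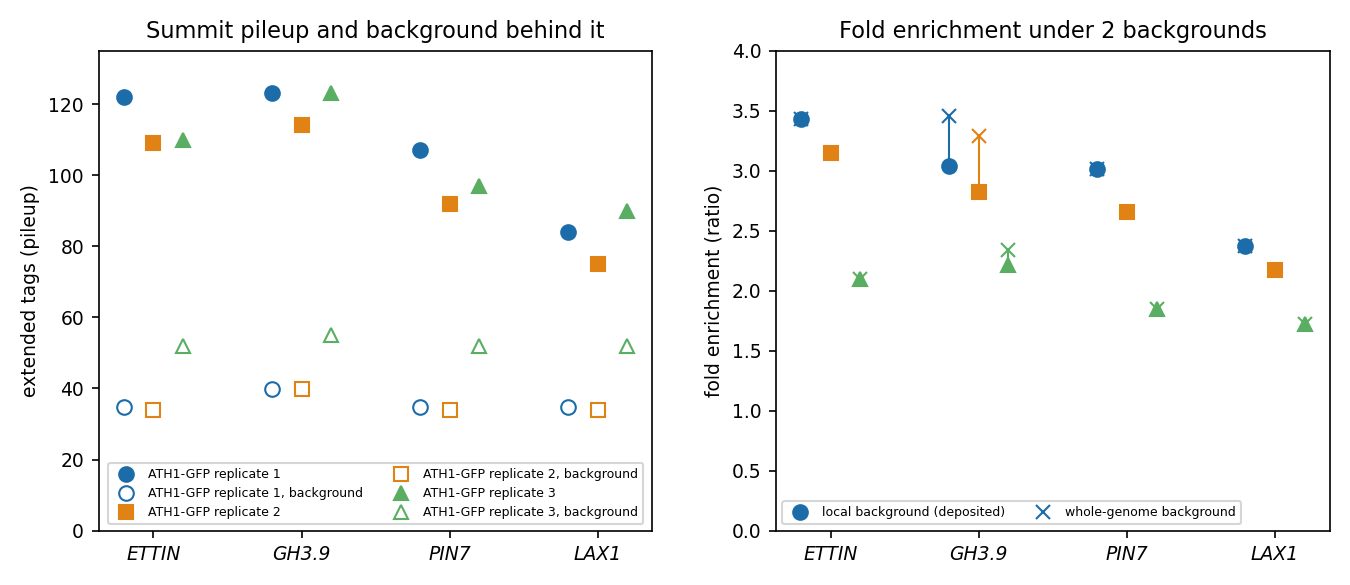
Left, extended tags over the summit (filled symbols) and the background implied by the deposited fold enrichment (open symbols) for each site and ATH1-GFP library. Right, the deposited fold enrichment (filled symbols) and the value against the genome-wide background (crosses), which coincide at *ETTIN*, *PIN7* and *LAX1* and separate at *GH3.9*.

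The lists of auxin genes drawn up beside these members held 108 genes, of which 8 (7.41%) were listed targets, against 620 of 37899 RefSeq loci (1.64%). The RefSeq loci include long noncoding RNA and tRNA genes, whereas the auxin lists hold families of proteins. The shares are therefore not of like sets, and no share over protein-coding genes alone was computed. The lists were drawn up with results of these data known, so the counts are a description and were not tested. By role, the listed genes were 1 of 8 PIN efflux carriers, 1 of 4 AUX1/LAX influx carriers, 1 of 6 other transport genes, 1 of 22 auxin response factors, 1 of 19 GH3 enzymes and 3 of 29 Aux/IAA repressors. None of the 6 TIR1/AFB receptors and none of the 14 biosynthesis enzymes was listed. In each family of transport, response factors and conjugation, a single gene was thus represented.

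A free region was found for each of the 8 listed auxin genes, against 436 of all 629 listed genes (69.3%). This count is also a description, since the genes come from a table made with a criterion of this kind. *ABCB1* (AT2G36910), which encodes an ATP-binding cassette auxin efflux transporter, had its region on chromosome 2 at 15501264 to 15501588, where fold enrichment was 3.01, 2.54 and 2.15 (mean 2.57 ± 0.431, SD, n = 3), a value close to that of *PIN7*. The Aux/IAA genes, which encode repressors that bind to auxin response factors, spanned a wider range than the members, from 1.93 ± 0.193 at *IAA9* (AT5G65670) over 2.47 ± 0.581 at *IAA18* (AT1G51950) to 4.24 ± 0.938 at *IAA8* (AT2G22670). The 4 members therefore lay between *IAA9* and *IAA8*, in the range from 2.09 to 2.89, where all free regions ran from 1.78 to 6.65.

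**Figure D5:**
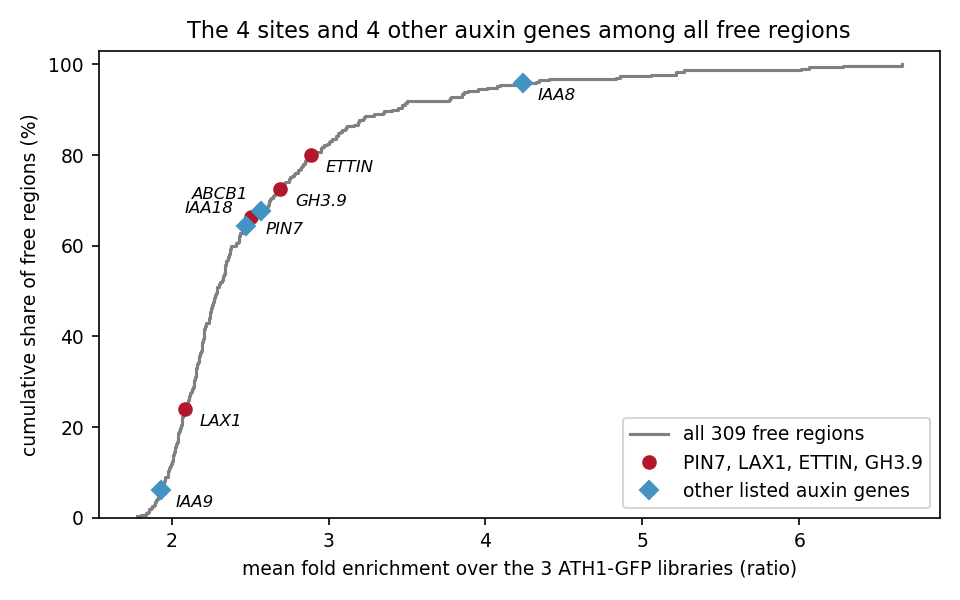
Cumulative share of the 309 free regions (%) against mean fold enrichment (ratio, 3 ATH1-GFP libraries), with the members as circles and the other listed auxin genes as diamonds. *ETTIN*, *GH3.9* and *PIN7* lie on the upper part of the steep rise, *LAX1* below the median of 2.29, and *IAA8* in the tail at 4.24.

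The free regions most like each member were found by the Euclidean distance between log2 fold enrichments over the 3 ATH1-GFP libraries. For *LAX1* the nearest was the region at *PHB* (AT2G34710), which encodes a class III HD-ZIP transcription factor of leaf polarity, with 2.34, 2.17 and 1.74 and a distance of 0.02. For *PIN7* it was a region in the windows of both the floral homeotic gene *AP3* (AT3G54340) and *emb1967* (AT3G54350), with 2.79, 2.60 and 1.83 and a distance of 0.12. For *GH3.9* it was the region at *IDD5* (AT2G02070), which encodes a zinc finger protein, with 3.07, 2.83 and 2.34 and a distance of 0.08. The nearest region to *ETTIN*, on chromosome 1 from 21959253 to 21959575, lay in no listed window and had 3.52, 3.03 and 2.19 at a distance of 0.09.

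The second nearest regions were at AT2G31730 and AT2G31740 for *LAX1*, at the amino acid permease gene *AAP1* (AT1G58360) for *PIN7*, at AT4G30790 and AT4G30800 for *GH3.9*, and at *CSLC6* (AT3G07330) and AT3G07340 for *ETTIN*. No gene of the auxin lists was among these nearest regions. Only 8 genes of those lists had a free region, where 309 regions were free, so their absence here says little about the members.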

How the data were processed

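Single-end reads of 50 nt from 6 libraries were mapped by the authors to TAIR10 with Bowtie2, whose version is not given in the sources used here. The authors ran MACS 2.0.10.20130915 on each library by itself. Per the file headers, it had no control library, extended tags to 300 nt, counted at most 1 tag per position, took 90000000 as effective genome size and 0.05 as q cutoff. The deposited fold enrichment is a ratio of the summit pileup to the background of the same library, and it was not compared in size between ATH1-GFP and wild-type libraries. The deposited pileup is a signal, the extended tags over the summit, not scaled for depth. The deposited −log10 p and −log10 q values are those of MACS within a library. The deposited score, −log10 q multiplied and rounded by MACS, was not used. Peak positions, fold enrichments and −log10 q values served to check that both files of each library held the same peaks. In the table of targets, the authors deposited averages over the ATH1-GFP libraries, the number of overlapping peaks and the gene windows; only the windows and a check of the average fold enrichment of the members were used.

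Peaks with an FDR below 0.001 were kept, and regions shared by all ATH1-GFP libraries were formed with an overlap of at least 1 bp. The value of a gene is that of its free region with the highest mean. Overlaps and the sign-flip test were tested on simulated data. The implied background was computed from the pileup and fold enrichment after adding 1 tag to the pileup and the background, as MACS does, and matched the genome-wide value if within 0.5%. Calculations used numpy 2.4.6, scipy 1.17.1, pandas 2.3.3 and matplotlib 3.10.9 under Python 3.11.15. RefSeq annotation (TAIR10.1) supplied only symbols and gene order. The members and lists were chosen with earlier results of these data known. The text names the members, listed genes that share their regions, genes flanking them, listed auxin genes, and genes at the 2 nearest free regions of each member. Alternatives were other thresholds, overlaps, treatments of wild-type peaks, scales and the omission of each library. Sequence was not analysed here. Replicates are biological per the labels, and *P* values refer to these libraries only. With so few libraries they mainly reflect whether the differences share a sign, and they do not measure the spread. No counting interval was computed, since no counts are given outside peaks.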

Additional observations from a re-analysis of the deposited data

Results flagged for a closer look

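A peak in the window of *LAX1* stood outside the comparisons, because it was called in a single library. In ATH1-GFP replicate 1 it spanned 95822 to 96155 on chromosome 5 (334 nt), with its summit at 96042, 77 extended tags, a fold enrichment of 2.18 and a −log10 q of 7.08. No deposited peak of ATH1-GFP replicates 2 and 3 or of any wild-type library overlapped the window at this position. The fold enrichment was close to that of the shared *LAX1* region in the same library, 2.37. The peak also lies in the window of AT5G01230, and its difference from the other libraries was not tested.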

How the results depend on the processing

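All 4 members kept a free region when any single library was left out, when peaks had to overlap by 50 nt or by 50% of the shorter one, when 2 ATH1-GFP libraries sufficed, and when wild-type peaks were ignored. The number fell to 3 at an FDR below 0.0001 (*LAX1* lost), and to 3 with every deposited peak, with every deposited wild-type peak excluded or with the center of the region inside the window (*GH3.9* lost each time). Leaving out 1 library moved the mean fold enrichment of *PIN7* between 2.25 and 2.84, of *LAX1* between 1.95 and 2.27, of *ETTIN* between 2.62 and 3.29 and of *GH3.9* between 2.52 and 2.93. Among the alternatives for pairs of members, 42 values equaled the main one to within 0.0001. Omitting a wild-type library, the overlap rules and other thresholds leave the deposited fold enrichments as they are. The genome-wide background likewise leaves the pairs among *PIN7*, *LAX1* and *ETTIN* as they are. Of the 39 that moved, 37 kept their direction. A pair with the same sign in every library cannot reverse when a library is left out or on the log2 scale. Among *PIN7*, *LAX1* and *ETTIN*, which had the same background within a library, scaled pileup and −log10 q follow fold enrichment. Many of these directions were therefore fixed in advance, and the count is no measure of robustness. Those that moved include values on other scales, which cannot equal the main one, so only their direction can be compared. *ETTIN* minus *GH3.9* was reversed to −0.473 when the summit pileup was scaled to tags per 1e6 tags of the library. It was also reversed, to −0.139, with the genome-wide background, an alternative chosen after seeing the data. Both divide the same pileup by a quantity set by library depth, so they are not separate reversals. In deposited fold enrichment, *ETTIN* minus *GH3.9* moved between 0.100 and 0.358 when 1 library was left out, and *GH3.9* minus *PIN7* between 0.0942 and 0.265. No paired analysis was possible because no test compared ATH1-GFP with wild-type libraries, the groups that share replicate numbers; members were compared within libraries. The planned search for motifs and the planned windows from the reference annotation were not run, since both needed a genome of the same build. The effect of depth on the calls was not tested, and 3 libraries limit the precision of each mean.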
